A study of Mus musculus with 2 samples.

Results

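The Ms4a genes encode the membrane-spanning 4-domains subfamily A, and 9 of them are described here across the cells of the normal mouse aorta: *Ms4a1*, *Ms4a4a*, *Ms4a4b*, *Ms4a4c*, *Ms4a4d*, *Ms4a6b*, *Ms4a6c*, *Ms4a6d* and *Ms4a7*. They were picked by symbol from the 32287 features counted, of which 19 carry an Ms4a symbol, and they were selected on their measured levels in these aortas, so their own levels are given as a description without a test. Single-cell RNA-Seq was performed on the thoracic aortas of 2 mice of the genotype GFPiSMC on the strain C57BL/6J at 12 weeks of age, 1 library per aorta. In GFPiSMC mice a tamoxifen-inducible Cre under the *Myh11* promoter turns the mT/mG membrane reporter from tdTomato to eGFP, chiefly in smooth muscle cells (SMCs), and both mice had received tamoxifen (1 mg/d over 5 days) when they were 3 weeks old. Only males can carry this transgene, which sits on the Y chromosome. Both aortas carried the same alleles and received the same agent, so they form 1 group (n = 2 separate aortas) and the comparisons are between cell types. Viable single cells were sorted after a cold enzyme digestion and without selection on GFP, so leukocytes and fibroblasts were included beside SMCs.

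MS4A proteins cross the plasma membrane several times and lie next to other receptors, whose signalling some of them modify. The best known member, *Ms4a1*, encodes CD20, a B cell surface protein that associates with the B cell receptor and is the target of B cell-depleting antibodies. *Ms4a4b* is a lymphocyte gene whose product has been placed beside the costimulatory receptor GITR, and *Ms4a4a* and *Ms4a7* are used as macrophage markers. *Ms4a2*, which is not among the 9, encodes the β chain of the high-affinity IgE receptor of mast cells.

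The 9 genes lay within 355.2 kb of chromosome 19 (mm10, positions from GENCODE vM21, which uses the same build). In order along the chromosome they were *Ms4a1* (chr19:11249675-11266241, minus strand), *Ms4a7* (chr19:11321039-11336146, minus), *Ms4a4a* (chr19:11375523-11392790, plus), *Ms4a4c* (chr19:11404770-11427246, plus), *Ms4a4b* (chr19:11443553-11467055, plus), *Ms4a6c* (chr19:11469366-11482192, plus), *Ms4a6b* (chr19:11516512-11531256, plus), *Ms4a4d* (chr19:11536801-11558467, plus) and *Ms4a6d* (chr19:11586604-11604849, minus). The shortest gap between neighbours was 2.31 kb, between *Ms4a4b*, which was highest in T cells, and *Ms4a6c*, which was highest in monocytes. *Ms4a6b* and *Ms4a4d* were 5.54 kb apart and were highest in leukocytes and in fibroblasts. The 6 genes on the plus strand, from *Ms4a4a* to *Ms4a4d*, thus included a T cell gene, a fibroblast gene, 3 genes highest in monocytes in both aortas and *Ms4a6b* within 182.9 kb.

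**Figure D1:**
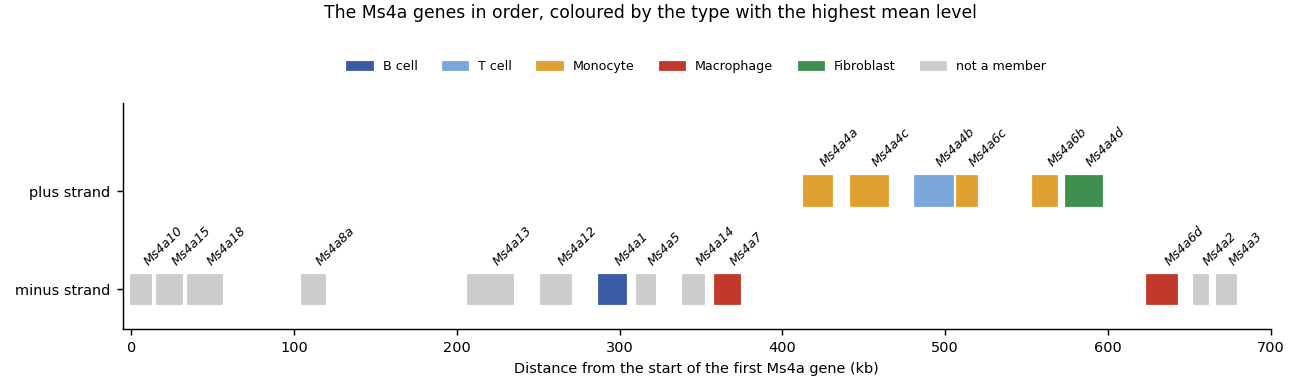
The 19 Ms4a genes drawn to scale by distance in kb from the start of the first gene, with plus-strand genes above and minus-strand genes below, and the 9 described here coloured by the cell type with the highest mean level over 2 aortas. The T cell gene *Ms4a4b* lies between monocyte genes, and the fibroblast gene *Ms4a4d* between *Ms4a6b*, whose highest type was T cells in aorta 1 and monocytes in aorta 2, and the macrophage gene *Ms4a6d*.

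The pair closest in coding sequence, *Ms4a4b* and *Ms4a4c*, had its highest levels in different cell types. These genes were 91.7% identical over the coding bases, *Ms4a4c* and *Ms4a4d* 87.0%, and *Ms4a4b* and *Ms4a4d* 84.7%, and these 3 were highest in T cells, monocytes and fibroblasts. *Ms4a6b*, *Ms4a6c* and *Ms4a6d* were 77.4% to 84.2% identical to one another, and all 3 had high levels in macrophages. The other 30 pairs of the 36 shared 53.8% to 65.0% of coding bases in a global alignment. The first 120 coding bases of each trio, read from the GENCODE transcripts with the longest coding sequence, show how few positions separate the members, with capitals at the 13 positions that differ within the first trio and the 22 that differ within the second:
Ms4a4b: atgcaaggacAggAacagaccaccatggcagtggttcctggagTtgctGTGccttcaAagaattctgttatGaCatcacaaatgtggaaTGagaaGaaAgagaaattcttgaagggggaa
Ms4a4c: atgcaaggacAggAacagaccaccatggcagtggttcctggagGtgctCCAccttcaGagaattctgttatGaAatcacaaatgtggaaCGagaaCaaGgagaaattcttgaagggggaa
Ms4a4d: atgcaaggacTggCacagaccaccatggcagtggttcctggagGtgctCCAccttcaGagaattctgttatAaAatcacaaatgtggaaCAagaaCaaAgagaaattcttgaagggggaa
Ms4a6b: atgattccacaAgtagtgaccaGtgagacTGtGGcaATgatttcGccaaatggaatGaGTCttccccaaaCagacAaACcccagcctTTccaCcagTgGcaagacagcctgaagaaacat
Ms4a6c: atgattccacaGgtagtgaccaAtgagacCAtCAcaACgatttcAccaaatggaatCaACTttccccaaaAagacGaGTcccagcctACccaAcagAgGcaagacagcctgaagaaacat
Ms4a6d: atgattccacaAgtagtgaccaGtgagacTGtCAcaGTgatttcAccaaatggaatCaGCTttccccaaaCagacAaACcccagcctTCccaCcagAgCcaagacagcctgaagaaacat

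Such likeness bears on how well reads of these genes can be told apart, since a read that fits several genes equally is not assigned. The longest stretch shared without a mismatch was 127 bases for *Ms4a4b* and *Ms4a4c*, and it lay 4190 and 1144 bases from the 3′ ends at which this chemistry primes. For *Ms4a6b* and *Ms4a6c* it was 96 bases, which lay 1293 and 228 bases from the 3′ ends, so a part of the *Ms4a6c* reads may have been lost or split. On the opposite strand, BE692007 overlaps *Ms4a6c* and Gm19261 overlaps *Ms4a6b*, and whether strand was used in the counting is not given in the sources used here. BE692007 was measured at 505 and 462 CPM (UMIs of the gene per 1000000 UMIs of all genes of that cell type) in B cells and 220 and 154 in T cells of aortas 1 and 2, but only 10.4 and 11.1 in macrophages, where *Ms4a6c* was high.

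RefSeq promoter windows (GRCm38.p6, 250 bases before to 50 after the start) were given for 7 of the 9 members. The windows of *Ms4a6b* and *Ms4a6c* shared a run of 48 bases, and the next longest shared run was 20 bases, between *Ms4a4b* and *Ms4a4c*. They are printed because they were also the only member windows with an ETS-type motif (AGGAAGT on either strand), shown in capitals:
Ms4a6b promoter, chr19:11518309-11518608, plus strand: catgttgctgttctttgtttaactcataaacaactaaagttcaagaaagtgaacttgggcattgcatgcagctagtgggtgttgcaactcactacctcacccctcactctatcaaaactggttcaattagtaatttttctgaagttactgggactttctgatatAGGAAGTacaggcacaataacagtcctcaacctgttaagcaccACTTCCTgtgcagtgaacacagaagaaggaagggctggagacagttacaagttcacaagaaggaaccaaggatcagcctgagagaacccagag
Ms4a6c promoter, chr19:11469118-11469417, plus strand: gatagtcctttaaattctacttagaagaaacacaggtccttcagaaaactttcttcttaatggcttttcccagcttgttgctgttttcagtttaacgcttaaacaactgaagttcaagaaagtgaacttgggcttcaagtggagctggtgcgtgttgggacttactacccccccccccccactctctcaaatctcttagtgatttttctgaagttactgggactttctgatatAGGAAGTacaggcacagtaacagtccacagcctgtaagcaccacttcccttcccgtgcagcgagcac

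The motif began at positions -86 and -43 from the start of *Ms4a6b* and at -17 from that of *Ms4a6c*, and 9.27% of 32544 promoter windows held it. An octamer (ATGCAAAT, in 1.75% of windows) and a RUNX-type motif (TGTGGT, 16.7%) were found in the *Ms4a4c* window. An AP-1-type motif (TGANTCA, 7.79%) was found in the *Ms4a4b* window and in the second of 2 *Ms4a7* windows, a C/EBP-type motif (TTGCNNAA, 10.8%) in that of *Ms4a4d*, and TATAAA (13.6%) in that of *Ms4a4b*. The ETS-IRF composite element (2.73%) was found in no member window, and the *Ms4a4a* window and the first *Ms4a7* window held none of the 7 motifs. These are matches of letters and not measured binding sites.

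After filtering, 6539 and 4614 cells with a median of 5671 and 5396 UMIs remained in aortas 1 and 2, and they formed 30 clusters, 28 of which could be named as 12 cell types from marker genes without any Ms4a gene. B cells were defined by *Cd79a* and its partners (131 and 99 cells, *Cd79a* detected in 99.2% and 100% of them). The other types in which a member was high were T cells (468 and 246 cells), monocytes (51 and 30), macrophages (791 and 477) and fibroblasts (1635 and 1143). Monocytes, neutrophils (46 and 37), type 2 innate lymphoid cells (ILC2s; 23 and 17) and erythroid cells (24 and 14) were few, so 1 UMI weighed much there, and 3 UMIs equalled 9.69 and 17 CPM in monocytes but 0.611 and 1.04 in macrophages. The name ILC2 rests on *Il1rl1*, *Gata3* and *Il7r* and is a label only. The type 2 effector genes *Areg* and *Il13* were at 0 CPM in that cluster in both aortas. The T cell markers summed to 1438 and 2070 CPM there, against 3390 and 3219 CPM in T cells. Of the analysed barcodes 10 occurred in both libraries. The 13 cells of an unnamed cluster, all from aorta 1, had *Xist* among their leading genes although the mice were male, and they entered no cell type. All levels are given in CPM as defined above, and levels are compared between cell types and not between genes.

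Together the 9 members gave 14013 and 9507 UMIs in the analysed cells. Macrophages held 51.9% and 55.3% of them, T cells 23.4% and 17.2%, fibroblasts 9.95% and 10.5%, B cells 6.82% and 8.53%, and monocytes 4.36% and 4.69%. By mean level, 4 members were highest in monocytes, 2 in macrophages and 1 each in B cells, T cells and fibroblasts, and the highest type was the same in both aortas for 8 of the 9. The exception was *Ms4a6b*. SMCs, the most numerous type (2221 and 1609 cells), held 0.328% and 0.431% of the member UMIs.

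**Figure D2:**
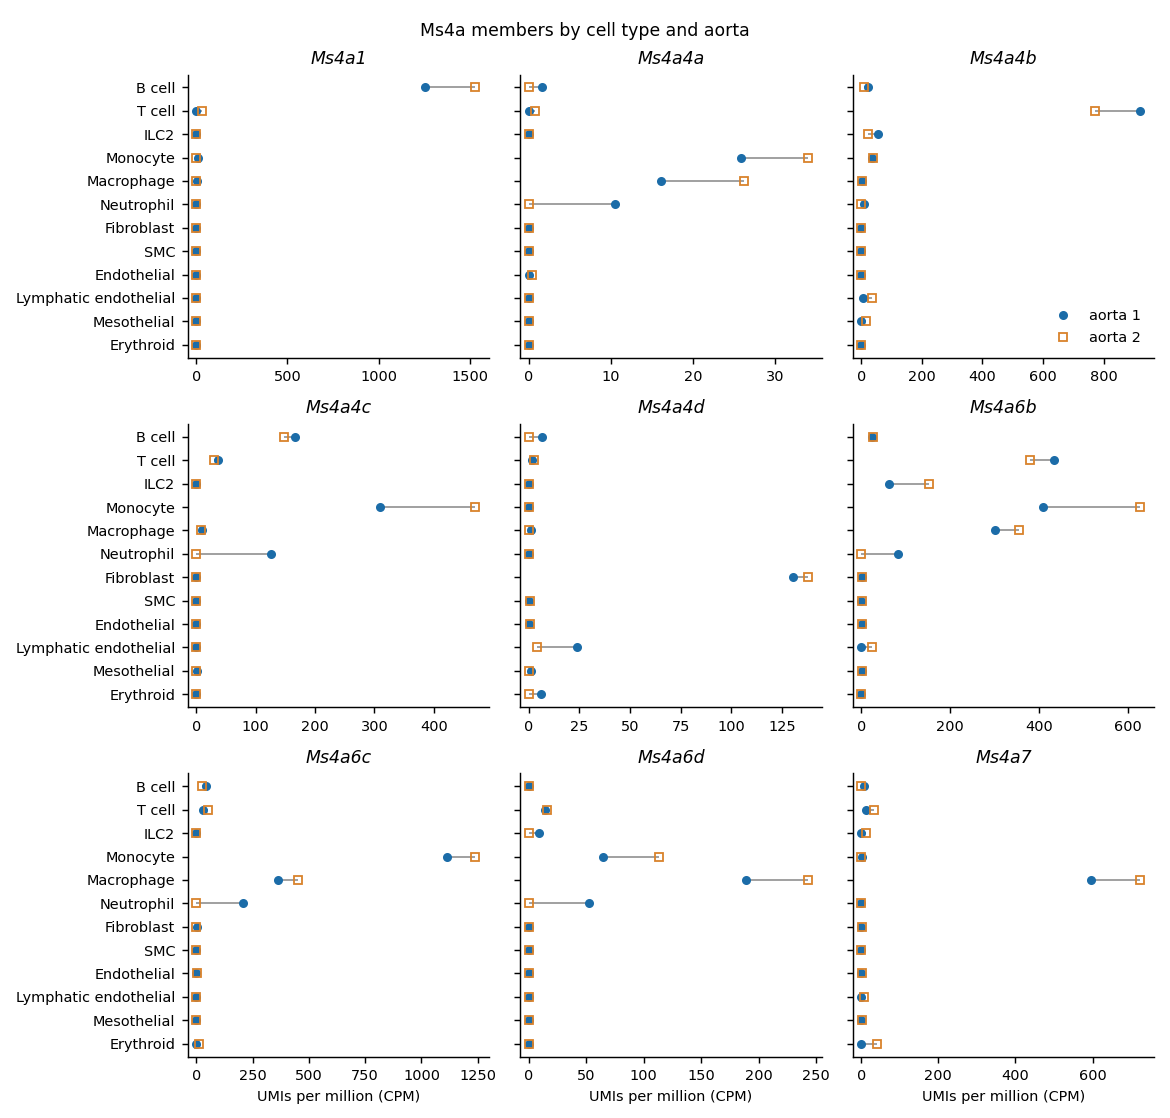
Level in CPM of each of the 9 members (1 panel per gene, linear axes of different length) in the 12 cell types, with a filled circle for aorta 1, an open square for aorta 2 and a grey line joining them. *Ms4a1*, *Ms4a4b*, *Ms4a4d* and *Ms4a7* are each high in 1 type, whereas *Ms4a6b* is high in T cells, monocytes and macrophages at once.

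*Ms4a1* marked B cells. Its level was 1256 CPM in aorta 1 (786 UMIs) and 1532 CPM in aorta 2 (713 UMIs), 1394 ± 195 CPM (SD, n = 2), and B cells held 95.4% and 94.2% of its UMIs. T cells, monocytes and macrophages overlapped in their order below B cells. T cells had 1.33 and 29.7 CPM, in aorta 2 from 37 UMIs that were all found in a single cell of a T cell cluster led by *Top2a* and *Mki67*. Monocytes had 9.69 and 0 CPM, from 3 and 0 UMIs, and macrophages 4.48 and 1.04 CPM, from 22 and 3 UMIs in 3 and 1 cells of the cluster led by *Saa3* and *Marco*. When each cell was thinned to 1000 UMIs, 62.6% (exact 95% interval 53.7 to 70.9) and 66.7% (56.5 to 75.8) of B cells had a UMI of *Ms4a1*, against 90.1% and 90.9% without thinning, at a median of 3337 and 3467 UMIs per B cell. With B cells taken as all cells with at least 2 UMIs of *Cd79a* (135 and 103 cells, of which 130 and 99 were in the B cell cluster) the level was 1193 and 1447 CPM. *Ms4a4c* was the only other member with a B cell level above 100 CPM in each aorta.

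The B cell receptor list, which holds the receptor's signalling chains, coreceptors and proximal kinases, was tested as the context of *Ms4a1*. The test was edgeR's quasi-likelihood test, with Benjamini-Hochberg adjustment over every gene that passed the filter on low counts. Shares and medians over all genes refer, for this fit, to 10759 tested genes, without those used in the clustering or as markers. Genes variable enough to enter the clustering are thus missing from this background, while the list genes had been kept out of the clustering. Of the 12 list genes that had not served as markers, 11 were higher in B cells than the mean of the other types. Of all genes, 13.7% were called higher there and 4.28% lower. The median log2 fold change of those 12 was 7.22, against 0.35 over all genes. Of the same 12 genes, 8 were also called higher in macrophages (median 3.85), where 21.9% of all genes were, and 5 in T cells (median 2.04), where 21.0% were. In T cells the direction turned with the setting, to 1 higher and 5 lower with the other types pooled, 2 higher and 3 lower with cells of 5000 to 25000 UMIs and 3 of each with DESeq2, and in macrophages pooling gave 7 higher and 4 lower. *Fcrla*, a B cell Fc receptor-like protein, was at 254 and 266 CPM in B cells and 0.151 and 0.188 CPM in the other types pooled (log2 fold change 11.20 ± 0.35 SE, adjusted p = 5.66e-18). *Cd22*, an inhibitory coreceptor, was at 187 and 206 CPM against 0.303 and 0.263 (10.93 ± 0.47 SE, adjusted p = 2.07e-15). *Blk*, a Src family kinase, was at 105 and 155 CPM against 0.479 and 0.750 (10 ± 0.53 SE, adjusted p = 4.5e-13), but it was not called with DESeq2 (7.99). *Cd81*, a tetraspanin found on many cell types, was the gene not called, at 238 and 223 CPM in B cells and 783 and 808 in the other types pooled (-0.42, adjusted p = 0.182), but with the other types pooled it was called lower at -1.50. Fold changes of this kind depend on how types with no UMI of a gene are averaged, and with the other types pooled in each aorta they were 10.83 for *Fcrla*, 9.66 for *Cd22* and 8.02 for *Blk*. The p-values set the fold changes against the spread between the 2 aortas within a type, estimated over all types together. The types had been formed from the same cells, although without the list genes.

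*Ms4a4b* marked mature T cells. Its level was 921 CPM in T cells of aorta 1 (2081 UMIs) and 771 CPM in aorta 2 (960 UMIs), 846 ± 105 CPM (SD, n = 2), and T cells held 96.2% and 94.9% of its UMIs. ILC2s followed at 54.2 and 23.4 CPM, from 6 and 2 UMIs, and monocytes at 35.5 and 39.6 CPM, from 11 and 7 UMIs, and these types did not differ beyond the range of the aortas. Within T cells its level varied widely between clusters. It was 1344 and 1459 CPM in the cluster led by *Nkg7*, *Dapl1* and *Lef1* (299 and 139 cells), 81.5 and 0 CPM in that led by *Top2a* and *Mki67* (46 and 34 cells), and 19.9 and 110 CPM in that led by the recombination genes *Rag1* and *Dntt* (123 and 73 cells). The first cluster lay above the other T cell clusters in each aorta. At the finer clustering resolution a natural killer (NK) cell cluster separated from it (29 and 12 cells), in which *Ms4a4b* was at 1643 and 1470 CPM.

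*Ms4a6b* was shared by T cells, monocytes and macrophages. It was at 433 and 379 CPM in T cells, 410 and 628 CPM in monocytes, 300 and 356 CPM in macrophages and 63.3 and 152 CPM in ILC2s. T cells were highest in aorta 1 and monocytes in aorta 2, so the order of these types was not settled by 2 aortas, while macrophages lay below T cells in both. Macrophages held 54.7% and 60.3% of its UMIs and T cells 36.4% and 27.6%. Among T cell clusters it followed *Ms4a4b*, with 609 and 666 CPM in the *Nkg7* and *Lef1* cluster, 83.7 and 64.6 CPM in the *Top2a* cluster and 56.5 and 88.0 CPM in the *Rag1* cluster. After thinning, 19.7% and 18.3% of T cells held a UMI of both *Ms4a4b* and *Ms4a6b*, where the product of the separate shares was 12.6% and 10.6%. In B cells *Ms4a6b* was at 24 and 25.8 CPM.

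**Figure D3:**
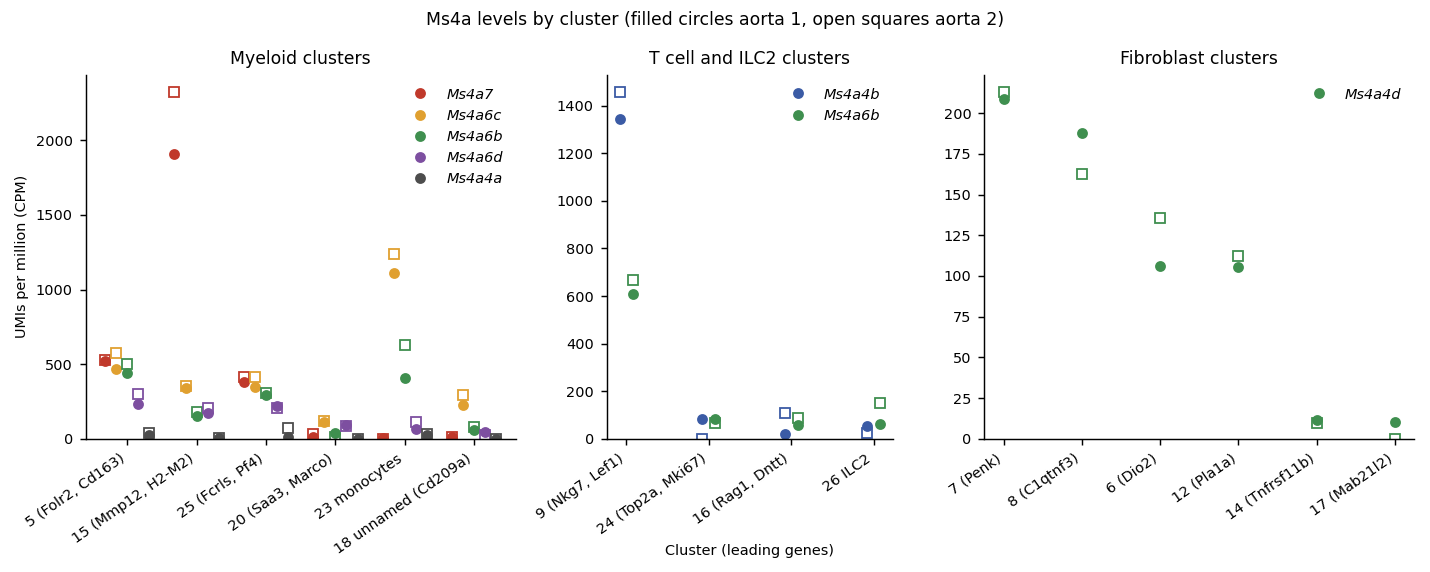
Levels in CPM of selected members in single clusters, numbered and named by leading genes, with filled circles for aorta 1 and open squares for aorta 2. *Ms4a7* is highest in the macrophage cluster led by *Mmp12* and *H2-M2*, *Ms4a4b* and *Ms4a6b* in the T cell cluster led by *Nkg7* and *Lef1*, and *Ms4a4d* is near 0 in 2 of the 6 clusters named fibroblast here, although leading genes of both were also found in clusters named SMC with cells of 5000 to 25000 UMIs.

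The T cell costimulation list was tested as the context of *Ms4a4b*, with GITR (*Tnfrsf18*) as the partner named above. Of its 12 genes 10 passed the filter on low counts, and 8 of these were higher in T cells, where 21.0% of all genes were called higher and 4.61% lower. Their median log2 fold change was 7.07, against 0.49 over all genes. *Tnfrsf18* itself was at 61.9 and 41.8 CPM in T cells and 2.18 and 1.58 CPM in the other types pooled (log2 fold change 5.74 ± 0.53 SE, edgeR adjusted p = 5.11e-10). It was also among the leading genes of the ILC2 cluster, and it was called higher in B cells (4.31, edgeR adjusted p = 0.00251). With *Cd2* (7.45) and *Cd28* (3.66), 3 of the 10 genes were called higher in B cells, where 13.7% of all genes were called higher and 4.28% lower. With the other types pooled, 11 genes of the list were tested, and 2 were higher and 3 lower in B cells. *Cd6*, a T cell surface receptor, was at 118 and 103 CPM in T cells against 0.0789 and 0.193 (10.21 ± 0.38 SE, adjusted p = 3.21e-16). *Lck*, the kinase of the T cell receptor, was at 764 and 745 CPM against 1.95 and 3.05 (8.66 ± 0.17 SE, adjusted p = 2.33e-25). *Cd5*, an inhibitory receptor, was at 150 and 139 CPM against 0.50 and 0.966 (8.05 ± 0.31 SE, adjusted p = 2.11e-18). The calcium entry genes *Orai1* and *Stim1* were not called, at log2 fold changes of -0.07 and 0.80, and *Ctla4* and *Tnfrsf4* did not pass the filter, with 10 and 4 and with 42 and 15 UMIs in T cells.

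Monocytes, the circulating precursors of many macrophages, had the highest mean levels of *Ms4a4a*, *Ms4a4c*, *Ms4a6b* and *Ms4a6c*. *Ms4a6c* was at 1114 CPM in aorta 1 (345 UMIs) and 1240 CPM in aorta 2 (219 UMIs), 1177 ± 89.2 CPM (SD, n = 2), and macrophages at 362 and 453 CPM were 3.07 and 2.74 times lower. After thinning, 56.9% (exact 95% interval 42.2 to 70.7) and 56.7% (37.4 to 74.5) of monocytes and 30.8% and 35.2% of macrophages had a UMI of it. Since macrophages outnumbered monocytes, they still held 72.2% and 73.6% of its UMIs. Neutrophils had 210 CPM in aorta 1, from 20 UMIs, and none in aorta 2, and this difference recurred for 5 further members with a neutrophil UMI: neutrophils gave 47 member UMIs in aorta 1 and 0 in aorta 2. These UMIs lay in at most 3 of the 46 neutrophils of aorta 1 for any member.

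*Ms4a4c* was shared by monocytes and B cells. It was at 310 and 470 CPM in monocytes (96 and 83 UMIs), 166 and 148 CPM in B cells (104 and 69 UMIs), 37.2 and 29.7 CPM in T cells, 9.37 and 8.63 CPM in macrophages and 126 and 0 CPM in neutrophils. Monocytes lay above B cells, and B cells above T cells, in each aorta. No type held most of its UMIs: 23.7% and 32.4% were in monocytes, 25.7% and 27.0% in B cells, 20.7% and 14.5% in T cells and 11.4% and 9.77% in macrophages. A further 60 and 39 UMIs, at 74.1 and 76.8 CPM, were in an unnamed cluster of 75 and 53 cells led by *Lyz1*, *Cd209a* and *Ccr2*, in which *Ms4a6c* was at 224 and 293 CPM.

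**Figure D4:**
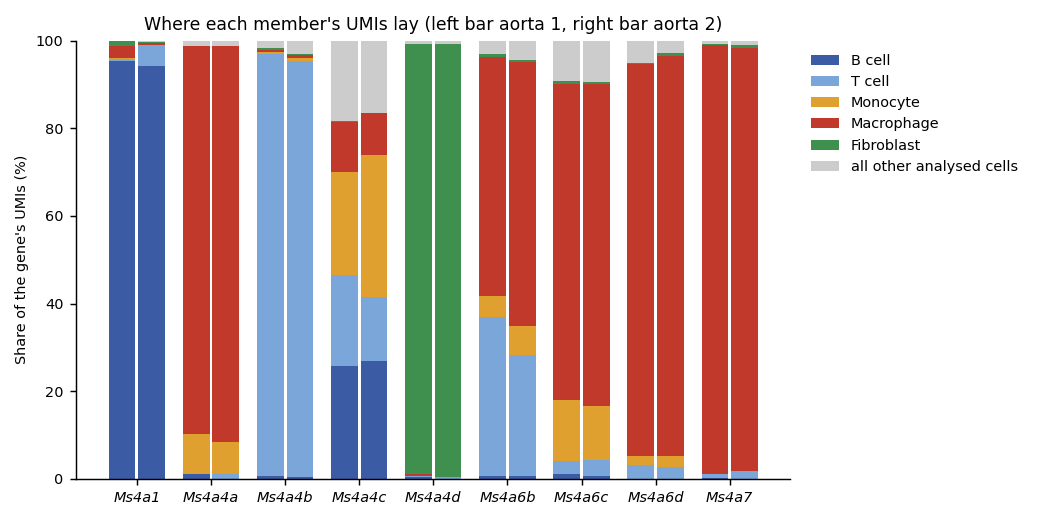
Share in percent of each member's UMIs that lay in B cells, T cells, monocytes, macrophages, fibroblasts and all other analysed cells, with the left bar for aorta 1 and the right bar for aorta 2. *Ms4a1*, *Ms4a4b*, *Ms4a4d* and *Ms4a7* each have over 94% in 1 type, and *Ms4a4c* is spread over 4 types.

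*Ms4a7* marked macrophages and was nearly undetected in monocytes. It was at 597 CPM in macrophages of aorta 1 (2929 UMIs) and 724 CPM in aorta 2 (2096 UMIs), 660 ± 89.8 CPM (SD, n = 2), and macrophages held 98.0% and 96.5% of its UMIs. Monocytes gave 1 and 0 UMIs, and a count of 3 UMIs there would have equalled 9.69 and 17 CPM. T cells had 11.9 and 32.1 CPM and erythroid cells 0 and 41.6 CPM, the latter from 4 UMIs, so their order overlapped. After thinning, 38.7% (exact 95% interval 35.3 to 42.2) and 41.5% (37.0 to 46.1) of macrophages held a UMI of it, at a median of 5343 and 5330 UMIs per macrophage, and 74.3% and 77.6% did without thinning.

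The macrophage clusters differed in *Ms4a7* by far more than the aortas did. The cluster led by *Mmp12*, a matrix protease, *H2-M2*, the class II gene *H2-Ab1* and *Itgax* had 1906 and 2325 CPM (119 and 79 cells). The cluster led by *Folr2*, *Mrc1* and *Cd163*, which mark resident macrophages, had 519 and 527 CPM (539 and 336 cells), and the cluster led by *Saa3*, *Alox15* and *Marco* had 11.9 and 31.1 CPM (77 and 41 cells) although its cells were the deepest, with a median of 15230 UMIs. The other macrophage members ran in another order. *Ms4a6b* was at 442 and 502 CPM in the *Folr2* cluster, 154 and 177 in the *Mmp12* cluster and 36.6 and 14.6 in the *Saa3* cluster. *Ms4a6c* was at 467 and 578, 342 and 352, and 115 and 121 CPM in the same clusters. The fourth macrophage cluster, led by *Fcrls* and *Pf4* (56 and 21 cells, median 1404 UMIs), had 380 and 412 CPM of *Ms4a7*, 296 and 309 CPM of *Ms4a6b* and 349 and 412 CPM of *Ms4a6c*. These clusters had been formed without the Ms4a genes, and no test was made between them.

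*Ms4a6d* was a second macrophage gene but was shared with monocytes. It was at 188 and 243 CPM in macrophages (925 and 703 UMIs), 216 ± 38.4 CPM (SD, n = 2), and at 64.6 and 113 CPM in monocytes (20 and 20 UMIs), so that macrophages were 2.92 and 2.14 times higher. Macrophages held 89.5% and 91.4% of its UMIs. Neutrophils had 52.4 and 0 CPM, and T cells 14.6 and 16.1 CPM. Its spread between macrophage clusters was narrower than that of *Ms4a7*, with 230 and 299 CPM in the *Folr2* cluster, 172 and 207 in the *Mmp12* cluster and 93.6 and 86.0 in the *Saa3* cluster.

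*Ms4a4a* gave the fewest UMIs of the 9, 89 and 84 in the analysed cells. Macrophages held 88.8% and 90.5% of its UMIs, at 16.1 and 26.2 CPM (79 and 76 UMIs), while monocytes had 25.8 and 34.0 CPM from only 8 and 6 UMIs, and the order of these types was within the spread of the aortas. Nearly all of its macrophage UMIs, 74 and 73, came from the *Folr2* cluster at 25.3 and 39.4 CPM. In the *Mmp12* cluster, where *Ms4a7* was highest, *Ms4a4a* was at 4.2 and 2.13 CPM, from 3 and 1 UMIs. After thinning 1.52% and 4.61% of macrophages held a UMI of it, against 8.85% and 13.8% without thinning.

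Members were also read in the same macrophages. After thinning, *Ms4a6c* and *Ms4a7* were found together in 13.4% and 16.1% of macrophages, where the product of the separate shares was 11.9% and 14.6%, and *Ms4a6d* and *Ms4a7* in 7.71% and 9.22%, where it was 6.99% and 10.1%. *Ms4a6b* was found with *Ms4a6c* in 11.2% and 15.9% (product 9.09% and 11.9%), with *Ms4a6d* in 6.07% and 11.5% (5.33% and 8.21%) and with *Ms4a7* in 12.4% and 14.7% (11.4% and 14%). *Ms4a6c* was found with *Ms4a6d* in 7.21% and 10.5% (5.58% and 8.56%). Of these 6 pairs, that of *Ms4a6d* and *Ms4a7* was below the product in aorta 2, and the others were above it in both aortas.

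The Fc receptor and lectin list, which holds phagocyte receptors and their adaptors, was tested as the context of the macrophage members. All 11 genes that were measured of its 12 were higher in macrophages than the mean of the other types, where 21.9% of all genes were called higher and 2.31% lower, and their median log2 fold change was 6.47, against 0.51 over all genes. In T cells 7 of the 11 were also called higher (median 1.69, against 0.49 over all genes), where 21.0% of all genes were called higher and 4.61% lower. The count for T cells turned to 1 higher and 9 lower with the other types pooled and to 1 higher and 2 lower with cells of 5000 to 25000 UMIs. *Clec10a*, a galactose-binding lectin, was at 284 and 366 CPM in macrophages and 1.41 and 1.07 CPM in the other types pooled (log2 fold change 8.54 ± 0.19 SE, edgeR adjusted p = 3.65e-24). *Fcgr1*, the high-affinity IgG receptor, was at 142 and 163 CPM against 1.58 and 1.86 (8.14 ± 0.25 SE, adjusted p = 2.58e-20). *Trem2*, a lipid-sensing receptor, was at 214 and 214 CPM against 5.23 and 6.56 (7.15 ± 0.24 SE, adjusted p = 4.08e-20). The shared γ chain *Fcer1g* was at 2180 and 2505 CPM against 51.4 and 53.4 (5.84 ± 0.15 SE, adjusted p = 1.52e-24). *Clec7a*, the dectin that MS4A4A has been placed beside, was not analysed here.

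Of the mast cell IgE receptor list, *Fcer1g* was the only gene tested that was no marker, and it was higher in macrophages as given above. *Fcer1a*, the α chain, gave 6 and 0 UMIs in macrophages and 1 and 0 in all other named types, with unnamed clusters not counted, and *Ms4a2*, the β chain of that receptor, gave 7 and 14 UMIs in all analysed cells, 4 and 14 of them in the unnamed *Cd209a* cluster. *Cpa3*, a mast cell protease, gave 4 and 1 UMIs in the named types. *Fcer1a*, *Ms4a2* and *Cpa3* did not pass the filter on low counts, and the marker *Kit*, a growth factor receptor, was not called (log2 fold change -1.16, 1 and 0 UMIs in macrophages), but was called lower with DESeq2 (-3.62) and with the other types pooled (-3.72).

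*Ms4a4d* was the one member of a structural cell type. It was at 130 CPM in fibroblasts of aorta 1 (1330 UMIs) and 138 CPM in aorta 2 (957 UMIs), 134 ± 5.37 CPM (SD, n = 2), and fibroblasts held 98.2% and 98.9% of its UMIs. Lymphatic endothelial cells followed at 24 and 3.94 CPM from 4 and 1 UMIs, and SMCs had 0.181 and 0.431 CPM from 3 and 5 UMIs. After thinning, 13.0% (exact 95% interval 11.4 to 14.8) and 12.8% (10.9 to 14.8) of fibroblasts held a UMI of it, and 42.8% and 43.9% did without thinning. Leaving out the 55 and 37 fibroblasts with a UMI of *Ptprc*, *Csf1r*, *Cd79a* or *Cd3e* left its level at 131.6 and 139.5 CPM.

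Its level differed between fibroblast clusters in both aortas. It was 209 and 213 CPM in the cluster led by *Penk*, *Sfrp4* and *Hmcn2* (423 and 303 cells), 188 and 163 CPM in that led by *C1qtnf3* and *Hhip* (310 and 209 cells), 106 and 136 CPM in that led by *Dio2* and *Adamtsl2* (488 and 288 cells) and 106 and 112 CPM in that led by *Pla1a* and *Aldh1a3* (170 and 202 cells). In the 2 remaining clusters it was lowest. The one led by *Tnfrsf11b* and *Fst* had 11.4 and 9.88 CPM (142 and 84 cells), and the one led by *Mab21l2* and *Aox3* had 10.1 and 0 CPM (102 and 57 cells), at median depths of 5828 and 6663 UMIs per cell that were no lower than in the *Penk* cluster (5408). With cells of 5000 to 25000 UMIs, a cluster with *Tnfrsf11b* and *Fst* among its leading genes was named SMC and not fibroblast. Leading genes of the *Mab21l2* cluster were then found both in a cluster named fibroblast (*Mab21l2*, *Aox3*) and in one named SMC (*Mab21l2*, *Nrn1*, *Tfap2b*).

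The adventitial surface list, with surface proteins and alarmins of outer-wall fibroblasts, was tested as the context of *Ms4a4d*. All 9 genes that had not served as markers were higher in fibroblasts, where 30.9% of all genes were called higher and 1.53% lower, and their median log2 fold change was 4.57, against 0.67 over all genes. In B cells 3 of the 9 were also called higher and 2 lower (13.7% and 4.28% of all genes), and in T cells 2 and 1 (21.0% and 4.61%). *Cd55* was at 4.34 in B cells and 3.27 in fibroblasts, and *Thy1* at 5.55 in T cells and 3.54 in fibroblasts. With the other types pooled, 1 was higher and 6 lower in B cells, and 1 higher and 7 lower in T cells. *Cd248*, a stromal glycoprotein, was at 428 and 681 CPM in fibroblasts and 20.8 and 24.9 CPM in the other types pooled (log2 fold change 6.87 ± 0.21 SE, edgeR adjusted p = 2.19e-21). *Il33*, an alarmin, was at 224 and 201 CPM against 17.1 and 22.7 (6.83 ± 0.26 SE, adjusted p = 9.2e-19). *Pi16*, a marker of adventitial fibroblasts, was at 3388 and 4353 CPM against 49.3 and 62.0 (5.79 ± 0.15 SE, adjusted p = 3.72e-24). *Dpp4*, a peptidase, was at 61.8 and 92.6 CPM against 50.7 and 30.8, and its log2 fold change of 4.10 fell to 0.97 with the other types pooled, below the limit for a call.

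**Figure D5:**
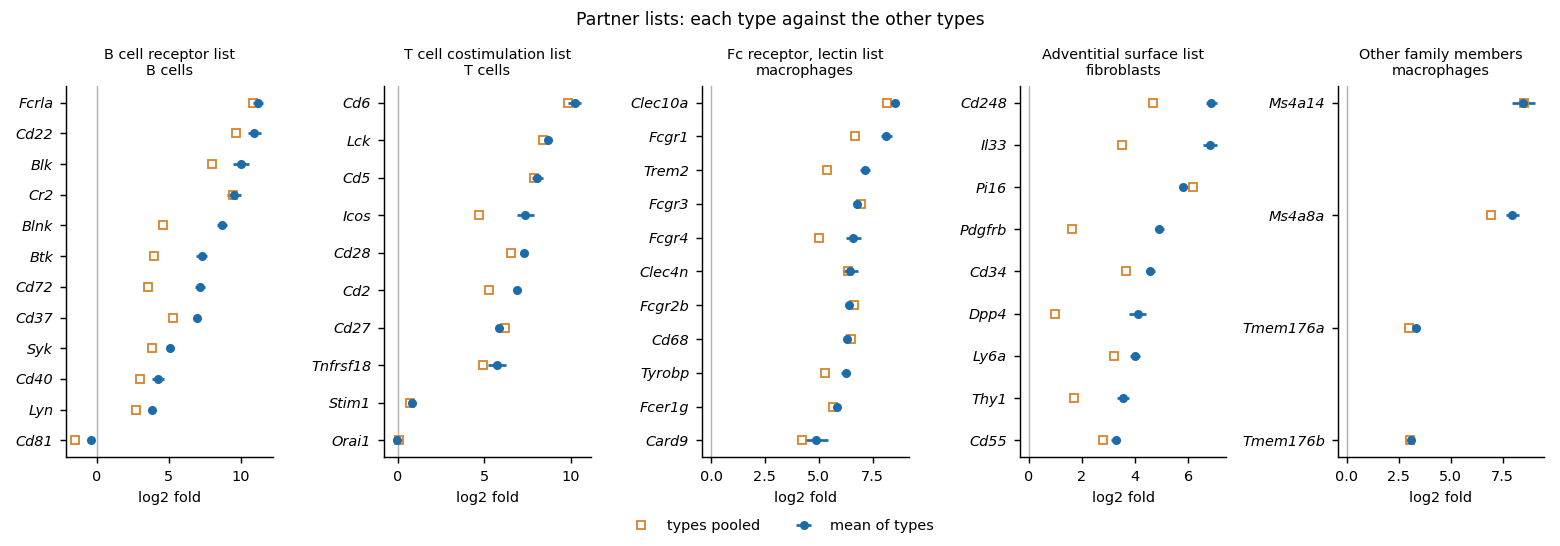
Log2 fold change of the tested genes of each list, other than those used as markers, in the named cell type, with blue circles and SE bars for the type against the mean of the other types and open squares for the same type against the other types pooled in each aorta. Most genes lie right of 0 by both measures, *Stim1* lies at 0.80, *Orai1* near 0 and *Cd81* below 0.

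The members were near 0 in SMCs and endothelial cells. In SMCs the levels of the 9 ran from 0 to 0.964 CPM (0 to 16 UMIs), in endothelial cells from 0 to 3.52 CPM and in fibroblasts, without *Ms4a4d*, from 0 to 1.86 CPM. In mesothelial cells they ran from 0 to 14.6 CPM and in lymphatic endothelial cells from 0 to 35.5 CPM, both highest for *Ms4a4b* in aorta 2, from 15 UMIs in 2 cells and 9 UMIs in 1 cell. After thinning, at most 0.135% of SMCs had a UMI of any one member. SMC levels of *Ms4a7* were 0.0908% and 0.0596% of those in macrophages, and the defining macrophage markers, which SMCs should lack, were at 0.144% to 0.270% and 0.0791% to 0.124% of theirs. *Ms4a6b*, *Ms4a6c* and *Ms4a6d* were at 0.152% to 0.284%, within or above those ranges. Leaving out the 65 and 28 SMCs with a leukocyte UMI lowered *Ms4a6c* from 0.964 to 0.560 and from 0.690 to 0.532 CPM. Free RNA, doublets and low expression were not told apart at these counts.

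Among the other genes of the family, *Ms4a8a* and *Ms4a14* were also macrophage genes. *Ms4a8a* was at 71.7 and 86.0 CPM in macrophages and 45.2 and 34.0 CPM in monocytes, and within macrophages it was highest in the *Saa3* and *Marco* cluster, at 184 and 231 CPM, where *Ms4a7* was lowest. *Ms4a14*, the neighbour of *Ms4a7*, was at 23.6 and 24.2 CPM in macrophages and 50.4 and 51.2 CPM in the *Mmp12* cluster, the cluster in which *Ms4a7* was also highest. *Ms4a10* and *Ms4a12* gave at most 2 UMIs per aorta in the analysed cells, and *Ms4a3*, *Ms4a5*, *Ms4a13*, *Ms4a15* and *Ms4a18* gave none, which allows up to 3 UMIs per aorta.

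*Tmem176a* and *Tmem176b*, relatives of the family that lie on chromosome 6, were more widespread. *Tmem176b* was at 771 and 876 CPM in macrophages, 1311 and 1591 CPM in ILC2s and 968 and 945 CPM in mesothelial cells. All 4 of these other family genes that passed the filter, *Ms4a8a*, *Ms4a14*, *Tmem176a* and *Tmem176b*, were called higher in macrophages, at log2 fold changes of 7.96, 8.49, 3.30 and 3.08. Of all genes, 21.9% were called higher in macrophages. In the same edgeR fit *Tmem176a* and *Tmem176b* were called lower in B cells (-1.50 and -1.91, adjusted p = 0.0283 and 1.47e-05) and in T cells (-1.35 and -1.89, adjusted p = 0.0154 and 7.92e-08). Of all genes, 4.28% were called lower in B cells and 4.61% in T cells. The number called lower in B cells fell from 2 to 0 with cells of 5000 to 25000 UMIs and to 1 with no UMI limits. With the other types pooled it rose to 3, and the number in T cells rose from 2 to 4.

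Across the 24 sums of type and aorta, the members fell into groups by Pearson's correlation of log2(CPM + 1), given as a description since the sums of a type share cells of like depth and the few UMIs of small types weigh heavily. *Ms4a4a* and *Ms4a6c* (r = 0.903), *Ms4a4a* and *Ms4a6d* (0.888), *Ms4a4c* and *Ms4a6c* (0.861) and *Ms4a6c* and *Ms4a6d* (0.852) were the most alike. *Ms4a4b* was most like *Ms4a6b* (0.754), although the gene nearest to it in sequence was *Ms4a4c* (0.546). *Ms4a4d* ranged from -0.281 with *Ms4a6b* to 0.00465 with *Ms4a1*, and was at -0.226 with its close relative *Ms4a4c*. Among all 13400 genes with at least 100 UMIs, the pattern of *Ms4a1* was most like those of *Mzb1* (0.988), *Fcmr* (0.988) and *Cd79a* (0.986), that of *Ms4a4d* most like *Cilp* (0.923), *Cpxm2* (0.907) and *Hmcn2* (0.903), and that of *Ms4a7* most like *Timd4* (0.865), *H2-M2* (0.847) and *Mmp13* (0.846). *Ms4a6c* was nearest to *Nlrc4* (0.949), *Ms4a6d* to *Lilra5* (0.961), *Ms4a4a* to *F10* (0.984), *Ms4a4c* to *Zc3h12d* (0.974), *Ms4a6b* to *Ifi209* (0.910) and *Ms4a4b* to *Hist1h2ae* (0.836).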

How the data were processed

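Per the labels and the study's methods, the authors counted UMIs per gene and cell with Cell Ranger against mm10 with eGFP and tdTomato added, and the submitters' processing notes name Seurat 4.0. The deposited values are raw counts for 8947 and 6263 cells (47009780 and 30919996 UMIs). Cells were kept when more than 200 genes were detected, the total lay between 1000 and 25000 UMIs and mitochondrial genes took less than 10%, and doublets called by Scrublet in scanpy 1.11.5 (3.04% and 1.79%) were removed. Both aortas were clustered together (2000 variable genes, 30 components, 15 neighbours, Leiden resolution 1) without the Ms4a and partner genes. A cluster was named where at least 3 of a type's markers were detected and its leading genes did not go against the name. The members and gene lists were chosen with earlier results of these data known. All members, all other Ms4a genes and, per list, the largest fold changes and any partner given as background are named, and other genes named with a cluster or an overlap were chosen after their values were seen.

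UMIs were summed per aorta and type. Counts were tested with edgeR 4.0.16 (filterByExpr, TMM, quasi-likelihood, cell type as the only term, 12 types in 1 fit), a gene being called past 1 on the log2 scale in either direction at a Benjamini-Hochberg adjusted p below 0.05. The SE of a fold change is its absolute log2 value divided by the square root of the test's F statistic, and was not estimated apart from the test. The test was checked on data with known changes. Types with the same replicate number come from the same aorta and are thus paired, although their deviations from the means of the types correlated at a median of only 0.0407 (66 pairs of types, -0.293 to 0.371). Alternatives were DESeq2 1.42.0, aorta as a block, no gene filter, other cell limits, doublets kept, other resolutions, each cell weighted equally and, chosen after seeing the data, the other types pooled. Intervals are exact and cover counting error only. One item of a list is not reported here. Coordinates are from GENCODE vM21, promoters from RefSeq (GRCm38.p6).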

Additional observations from a re-analysis of the deposited data

How the results depend on the processing

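Genes that differed from the mean of the other types were counted without those used in the clustering or as markers. Their numbers (B cells 1934, T cells 2752, macrophages 2605, fibroblasts 3488) moved by more than 1.5 times in 5 of 28 comparisons. With cells of 5000 to 25000 UMIs, which left 10 types in the fit, they were 1256 for B cells and 2274 for fibroblasts. With the other types pooled in each aorta, chosen after seeing the data, they were 4332, 5893 and 5334 for B cells, T cells and macrophages. The split also moved: 76.2%, 82.0%, 90.5% and 95.3% of calls were higher in the named type, against 53.3%, 40.5%, 46.2% and 74.1% with DESeq2, 60.7%, 50.2%, 66.1% and 83.6% with 5000 to 25000 UMIs and 32.4%, 35.2%, 37.3% and 45.9% with the types pooled. The cause was not tested. Pooling also moved the median log2 fold change of all genes from 0.35, 0.49, 0.51 and 0.67 to -0.31, -0.15, -0.06 and 0.03. The counts of list genes higher in their own type stayed within 1.5 times in all 42 comparisons. Other family genes lower in B cells went from 2 to 0 (5000 to 25000 UMIs), 1 (no UMI limits) and 3 (types pooled), and those lower in T cells from 2 to 4 (types pooled). *Orai1* reversed to 0.06 with no UMI limits, 0.12 with doublets kept and 0.04 with the types pooled, *Cd81* was called lower (-1.50) with the types pooled, where *Dpp4* was not called (0.97), *Blk* was not called with DESeq2 (7.99), and *Kit* was called lower with both (-3.62 and -3.72). With the replicate block for the aorta the counts were 1925, 2749, 2612 and 3479, and no call on a list gene in its own type changed. In T cells the markers of the B cell receptor list called higher went from 1 to 2. Levels of the members moved by more than 1 SD in 4 of 86 comparisons, their low levels in SMCs, fibroblasts and endothelial cells in 10 of 27 without cells that held a leukocyte UMI, and shares of cells rose in all 9 without thinning. Of the 86, 9 left out aorta 1 and 9 left out aorta 2. With 2 aortas such a shift is always below 1 SD, so these comparisons could not move and say nothing about stability. The number of members with the same highest type in both aortas was 8 or 9. At resolution 0.5, where monocytes did not form a type, *Ms4a4c* was highest in B cells, *Ms4a6b* in T cells and *Ms4a4a* and *Ms4a6c* in macrophages, and at resolution 2 *Ms4a4b* was highest in NK cells. Tests without an aorta were not run, since 1 aorta leaves no residual degrees of freedom. With 2 aortas, and with 30 to 51 monocytes per aorta, small differences were not detectable.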
